A study of Rattus norvegicus with 8 samples.

Results

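The genes described here are 9 direct targets of the transcription factor p53, namely Cdkn1a, Mdm2, Ccng1, Phlda3, Zmat3, Tp53inp1, Gdf15, Btg2 and Sesn1. They were chosen by name as a pathway of interest in a liver exposed to retrorsine, with earlier results of these data known. They were read from every probe that carries one of these names on a 1-colour rat expression array. They are 9 of 20834 genes named on the array, 12761 of them with a tested probe. They had 13 of 45598 probes, and all 13 were bright enough to be among the 23111 probes tested. RNA came from cells cut out of frozen liver sections by laser microdissection (LMD), in 8 samples of F344 rats. By the labels, 2 were mature hepatocytes (MHs) from recipient control livers, 3 were clusters of small hepatocyte-like progenitor cells (SHPCs) from recipient control livers (control SHPCs), and 3 were SHPC clusters from recipient livers transplanted with bone marrow-derived mesenchymal cells (SHPCs with BM-MCs). By the methods all recipients had received retrorsine and a partial hepatectomy, so these exposures are shared by the 3 groups and no sample of an unexposed liver was analysed here. The methods have recipient livers taken 14 days after transplantation and give no separate day for the array samples. The study's text also speaks of MHs of transplanted livers beside the arrays, so whether the MHs differed from the control SHPCs in transplantation too is not settled by the sources used here, and the label was followed. DPPIV, an enzyme used to tell donor from recipient cells, is given as present (DPPIV+) in the label of every sample, but by the methods the recipients were DPPIV- females and the donors of BM-MCs DPPIV+ males. Which animal each sample came from is not stated, and the spread that the p-values rest on is that of the samples, possibly technical only. The questions are how far the p53 targets differed between hepatocytes that stay in the retrorsine-exposed liver and the SHPCs that expand in it, and whether transplantation of BM-MCs went with a different level of these genes in SHPCs.

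p53 is kept at a low level in unstressed cells because Mdm2, a ubiquitin ligase, marks it for breakdown. Damage to DNA stabilises the p53 protein, largely without a change in its mRNA, and p53 then switches on genes that stop the cell cycle, help repair, alter metabolism or lead to cell death, Mdm2 among them. Retrorsine is a pyrrolizidine alkaloid that liver enzymes turn into a compound that crosslinks DNA, and hepatocytes that carry this damage divide poorly after loss of liver tissue. In the liver, p21, the product of Cdkn1a, is known as a brake on hepatocyte division.

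Values are log2 signals relative to the 75th percentile of the same array, so a value of 0 is the signal at that percentile and a difference of 1 is a doubling. Probes differ in brightness for reasons of sequence, so no gene's level is set against another's. Between 57.0% and 61.5% of the spots on an array were well above background. The arrays lay on 1 slide in sets of 4. Set 1 held both MH samples with control SHPC replicates 1 and 2, and set 2 held all BM-MC samples with control SHPC replicate 3. Only part of the scanner output of control SHPC replicate 2 was given, so its signals came from the deposited value table and its background marks were not used. Hepatocyte markers were bright in every sample, and the summed signal of the 10 markers, in multiples of the 75th percentile, was 779 to 799 in MHs, 755 to 884 in control SHPCs and 717 to 844 in SHPCs with BM-MCs. The summed signal of 7 Kupffer cell markers was 42.8 to 50.1 in MHs, 23.6 to 34.6 in control SHPCs and 29.9 to 43.0 in SHPCs with BM-MCs, so that MHs lay above control SHPCs. That of 5 erythroid genes was 13.4 to 27.6, 21.1 to 72.1 and 10.3 to 14.2 in the same order, and that of the 3 granulocyte genes bright enough to test, of 5 with Mpo and Csf3r, was 0.394 to 1.51, 1.13 to 1.57 and 0.363 to 0.481. For both, all BM-MC samples lay below all control SHPC samples. Markers of sinusoidal endothelium (4 of 5 named on the array), stellate cells (7 of 7), cholangiocytes (5 of 6, without Spp1) and lymphocytes (2 of 4, without Cd3e and Cd79b) were also measured. Their summed signals ran from 10.2 to 14.03, from 3.99 to 5.89, from 0.286 to 0.545 and from 0.527 to 0.967 over all samples. Those of cholangiocytes were lower in MHs, at most 0.354, than in every sample of control SHPCs, at least 0.418, and of SHPCs with BM-MCs, at least 0.421. The sums of sinusoidal endothelium did not overlap between SHPCs with BM-MCs, at least 12.2, and control SHPCs, at most 11.98. A sum is carried mostly by its brightest gene, here Kdr for endothelium and Clec4f for Kupffer cells. With BM-MCs, Kdr (0.32) and Stab2 (0.37) lay above all controls, whereas Lyve1 (-0.07) and Pecam1 (0.05) overlapped. In MHs, Cd68 (0.84), Cd163 (0.56), Clec4f (0.63) and Csf1r (0.69) lay above all controls. Adgre1 (0.57), Vsig4 (0.41) and Marco (-0.08) overlapped there. In LMD samples, fewer cells of a type and less RNA per cell cannot be told apart. The part of these other cells in the values below was not tested.

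The letters that the arrays read are shown for the 2 targets with the largest difference between SHPCs with and without BM-MCs. Each is a 60-base probe with a reading frame free of stop codons, placed in the build rn4 named by the file headers, and is written 5′ to 3′ in lower case with no part marked. The Tp53inp1 probe is not the brightest of its 4, and its own difference was 0.45, beside 1.68 for the brightest, on which the choice of the gene rests.
Gdf15, chr16:19313390-19313449, plus strand: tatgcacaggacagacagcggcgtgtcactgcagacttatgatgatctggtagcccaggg
Tp53inp1, chr5:25009229-25009288, plus strand: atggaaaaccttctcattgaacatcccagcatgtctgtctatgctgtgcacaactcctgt
On all 7 arrays with complete marks, these probes and the main probes of the other targets were well above background.

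Promoters of the targets were searched for the p53 full site, which is a pair of 10-letter p53 half-sites. The consensus is its own reverse complement, so 1 search covers both strands, and a spacer of 0 to 13 bases between the half-sites was allowed. RefSeq windows of 300 bases in the build GRCr8 were found for 7 of the 9 targets, in 8 windows, and for Tp53inp1 and Zmat3 none was used here. A full site with at most 1 mismatch of its 20 letters stood in 2 of the 8 windows, those of Cdkn1a and Ccng1, against 1.001% of all 33469 windows. A half-site with no mismatch stood in 3 of the 8, the third being that of Sesn1, against 7.98% of all windows. The windows of Btg2, Gdf15, Mdm2 and Phlda3 held no half-site, which says only that these letters were not in the windows. The 2 windows with a full site are given because both genes belong to the set described next, and the capitals mark the match.
Cdkn1a, chr20:7150682-7150981, plus strand: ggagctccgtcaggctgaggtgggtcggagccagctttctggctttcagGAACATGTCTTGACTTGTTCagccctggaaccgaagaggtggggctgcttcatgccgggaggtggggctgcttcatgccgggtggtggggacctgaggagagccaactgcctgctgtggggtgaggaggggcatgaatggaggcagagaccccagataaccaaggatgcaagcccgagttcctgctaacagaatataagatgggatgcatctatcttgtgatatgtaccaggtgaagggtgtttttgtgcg
Ccng1, chr10:25684827-25685126, minus strand: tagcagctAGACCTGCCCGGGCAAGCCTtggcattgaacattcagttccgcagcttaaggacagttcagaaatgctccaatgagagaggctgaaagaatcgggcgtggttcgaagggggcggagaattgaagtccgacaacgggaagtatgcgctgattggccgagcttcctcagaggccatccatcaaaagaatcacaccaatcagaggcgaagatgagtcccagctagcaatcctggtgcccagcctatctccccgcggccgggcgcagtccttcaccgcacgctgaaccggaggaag
Counted from the annotated start, the match ran from -201 to -182 in Cdkn1a and from -242 to -223 in Ccng1, with no spacer in either. A match is a description of letters and not a measured binding site.

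The 9 targets did not move as a block, and they took 3 shapes across the groups. Cdkn1a, Ccng1, Mdm2, Phlda3 and Zmat3 were highest in MHs. Tp53inp1, Gdf15 and Btg2 had their highest mean in SHPCs with BM-MCs, and Sesn1 had its lowest mean there. No target passed the adjusted threshold of 0.05 in limma in any comparison, and the adjusted p-values of the targets ran from 0.083 to 0.90 between MHs and control SHPCs, from 0.068 to 0.999 between SHPCs with and without BM-MCs, and from 0.16 to 0.68 between SHPCs with BM-MCs and MHs. These shapes were read from the values and carry no test of their own.

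**Figure D1:**
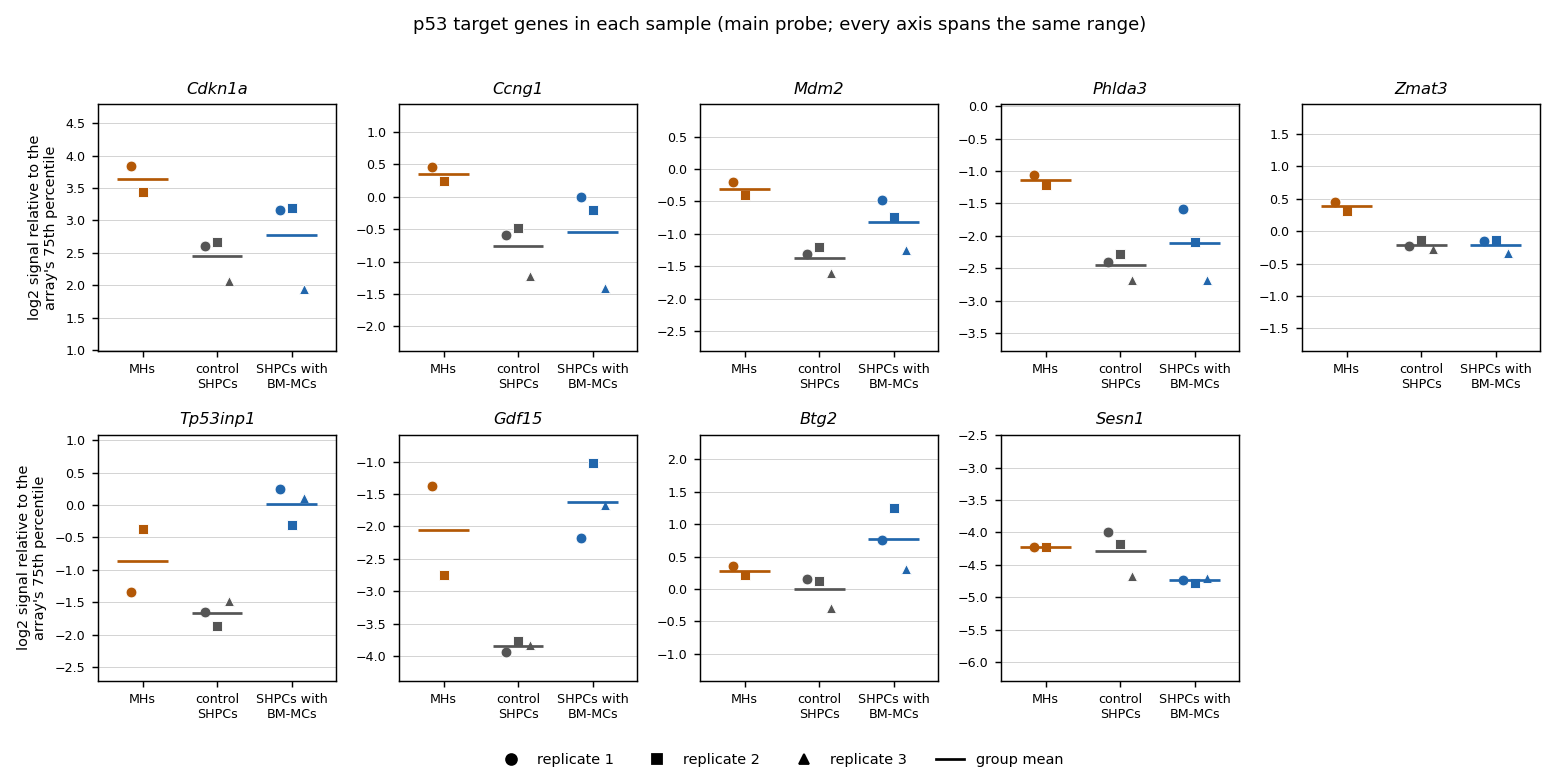
Log2 signal of the main probe of each target against its array's 75th percentile (vertical axes, all spanning the same range) in MHs, control SHPCs and SHPCs with BM-MCs, with 1 symbol per sample and a line at the group mean. MHs lie above every control SHPC sample for Cdkn1a, Ccng1, Mdm2, Phlda3 and Zmat3, and all 3 BM-MC samples lie above every control for Tp53inp1, Gdf15 and Btg2.

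Cdkn1a, which encodes the cyclin-dependent kinase inhibitor p21, was read by 10 spots of its main probe. It was at 3.84 and 3.44 in the MHs, at 2.61, 2.66 and 2.06 in control SHPCs, and at 3.17, 3.20 and 1.94 in SHPCs with BM-MCs. Both MHs lay above all 6 SHPC samples, whereas BM-MC replicates 1 and 2 lay above all controls and BM-MC replicate 3 below them. MHs differed from control SHPCs by 1.20, which is 2.29-fold (standard error 0.40, unadjusted p = 0.019, adjusted p = 0.19 from limma). SHPCs with BM-MCs differed from control SHPCs by 0.32 (standard error 0.37, adjusted p = 0.68), and from MHs by -0.87 (standard error 0.40, adjusted p = 0.40). The other Cdkn1a probe, which was dimmer, gave 1.32, 0.51 and -0.81 for the same 3 differences. By that probe both MHs again lay above all controls, but BM-MC replicate 2, at -1.90, lay above MH replicate 2, at -1.93, and BM-MC replicate 3, at -3.24, lay above the lowest control, at -3.34. The difference between SHPCs with and without BM-MCs was 0.74 without BM-MC replicate 3, 0.12 without replicate 1, 0.11 without replicate 2 and 0.13 without control SHPC replicate 3. That against MHs was -0.46 without BM-MC replicate 3.

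Ccng1, which encodes cyclin G1, a binding partner of protein phosphatase 2A, was at 0.47 and 0.25 in the MHs. Control SHPCs were at -0.60, -0.49 and -1.22, and SHPCs with BM-MCs at -0.01, -0.20 and -1.41. Both MHs lay above all SHPC samples, and BM-MC replicate 3 was the lowest of the 8, as for Cdkn1a. The difference between MHs and control SHPCs was 1.12 (standard error 0.42, unadjusted p = 0.031, adjusted p = 0.22 from limma) and that between SHPCs with and without BM-MCs was 0.22 (standard error 0.40, adjusted p = 0.80). Against MHs, SHPCs with BM-MCs differed by -0.90 (standard error 0.42, adjusted p = 0.41). The difference between the SHPC groups was 0.66 without BM-MC replicate 3 and ran from -0.04 to 0.36 with any other SHPC sample left out. That against MHs was -0.46 without BM-MC replicate 3.

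Mdm2, the ligase that marks p53 for breakdown and is itself switched on by p53, was at -0.20 and -0.41 in the MHs. It was at -1.31, -1.21 and -1.61 in control SHPCs and at -0.48, -0.74 and -1.25 in SHPCs with BM-MCs. MHs lay above every SHPC sample, and BM-MC replicate 3 lay within the range of the controls. The difference between MHs and control SHPCs was 1.07, or 2.10-fold (standard error 0.24, unadjusted p = 0.0025, adjusted p = 0.099 from limma). SHPCs with BM-MCs differed from control SHPCs by 0.55 (standard error 0.22, unadjusted p = 0.047, adjusted p = 0.30), and from MHs by -0.52 (adjusted p = 0.40), or -0.30 without BM-MC replicate 3.

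Phlda3, which competes with the kinase Akt for membrane lipids, was at -1.06 and -1.22 in the MHs, at -2.41, -2.29 and -2.68 in control SHPCs and at -1.58, -2.10 and -2.68 in SHPCs with BM-MCs. MHs were above all SHPC samples, and BM-MC replicate 3 and control replicate 3 were level. Set against control SHPCs, MHs differed by 1.32, or 2.49-fold (standard error 0.30, unadjusted p = 0.0027, adjusted p = 0.10 from limma). SHPCs with BM-MCs differed from control SHPCs by 0.34 (standard error 0.28, adjusted p = 0.56), by 0.62 without BM-MC replicate 3 and by 0.07 without BM-MC replicate 1. Against MHs the difference was -0.98 (standard error 0.30, adjusted p = 0.29).

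Zmat3, an RNA-binding zinc finger protein, was at 0.45 and 0.32 in the MHs, at -0.22, -0.13 and -0.27 in control SHPCs and at -0.15, -0.13 and -0.33 in SHPCs with BM-MCs. Both MHs lay above all SHPC samples, and the SD was 0.095 in MHs (n = 2), 0.071 in control SHPCs (n = 3) and 0.11 in SHPCs with BM-MCs (n = 3). Relative to control SHPCs, MHs differed by 0.59 (standard error 0.12, unadjusted p = 0.0017, adjusted p = 0.083 from limma) and SHPCs with BM-MCs differed from MHs by -0.59 (standard error 0.12, adjusted p = 0.16). The SHPC groups overlapped, and their difference was 0.00041 (standard error 0.11, adjusted p = 0.999).

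Tp53inp1, a stress-induced protein that takes part in p53 activation and autophagy, was at -1.35 and -0.37 in the MHs by its main probe. Control SHPCs were at -1.66, -1.87 and -1.48, and SHPCs with BM-MCs at 0.24, -0.31 and 0.11. All 3 BM-MC samples, replicate 3 included, lay above all 5 other samples. The difference from control SHPCs was 1.68, or 3.21-fold (standard error 0.19, unadjusted p = 7.3e-05, adjusted p = 0.068 from limma), and 23 of the 23111 probes had a lower p. Against MHs it was 0.87 (standard error 0.30, adjusted p = 0.32), 0.39 without MH replicate 1 and 1.36 without MH replicate 2. MHs differed from control SHPCs by 0.81 (standard error 0.30, adjusted p = 0.22), a value that was 1.30 without MH replicate 1 and 0.32 without MH replicate 2.

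The 4 probes of Tp53inp1 did not all give this result. Between SHPCs with and without BM-MCs the difference was 1.86 for probe A_44_P960566 (adjusted p = 0.071 from limma) and 0.45 for A_44_P1086410 (adjusted p = 0.15), whose letters are printed above, and the groups did not overlap for either. For A_44_P1105453 it was -0.11 (adjusted p = 0.76) with overlapping groups. Averaged over the 4 probes the difference was 0.97. Between MHs and control SHPCs the difference was 0.24 for A_44_P1086410 without overlap, and 0.58 for A_44_P960566 and 0.11 for A_44_P1105453 with overlapping groups, and the average of the 4 probes was 0.44. Between SHPCs with BM-MCs and MHs it was 1.28 for A_44_P960566 and 0.21 for A_44_P1086410 without overlap and -0.22 for A_44_P1105453 with overlapping groups, and the average was 0.54. The size thus varied among the probes in every comparison.

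**Figure D2:**
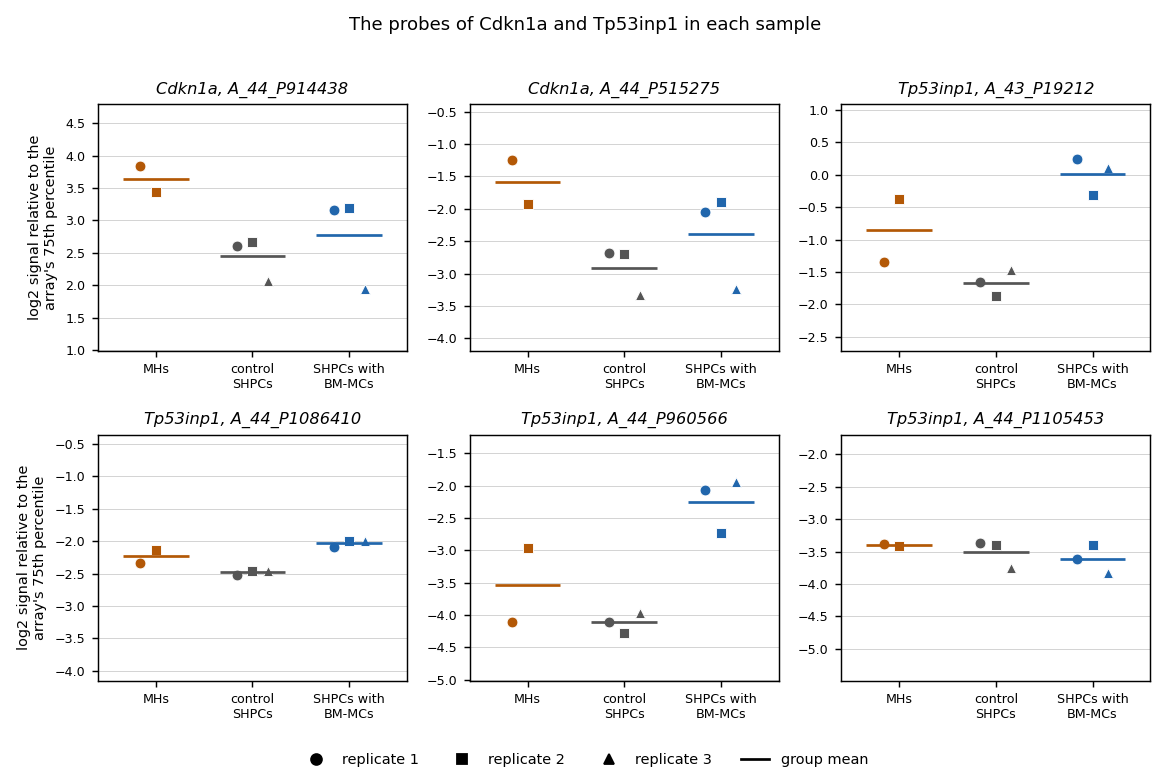
Log2 signal relative to the 75th percentile of the array for each of the 2 Cdkn1a and 4 Tp53inp1 probes in MHs, control SHPCs and SHPCs with BM-MCs, with 1 symbol per sample and lines at group means. The Cdkn1a probes give the same order of groups, while 3 of the Tp53inp1 probes place the BM-MC samples above all controls and A_44_P1105453 does not.

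Gdf15, a secreted cytokine of the TGF-beta family that rises in many kinds of cell stress, was at -1.37 and -2.75 in the MHs, at -3.94, -3.77 and -3.83 in control SHPCs and at -2.17, -1.02 and -1.67 in SHPCs with BM-MCs. The 3 controls were close together, at -3.85 ± 0.087 (SD, n = 3), and every sample of the other groups lay above them. The BM-MC samples, at -1.62 ± 0.58 (SD, n = 3), and the MHs, at -2.06 ± 0.98 (SD, n = 2), were more spread and overlapped. SHPCs with BM-MCs differed from control SHPCs by 2.23, or 4.68-fold (standard error 0.28, unadjusted p = 1.7e-04, adjusted p = 0.080 from limma), the largest difference among the targets in that comparison. MHs differed from control SHPCs by 1.79, or 3.46-fold (standard error 0.44, unadjusted p = 0.0042, adjusted p = 0.12), by 1.10 without MH replicate 1 and by 2.48 without MH replicate 2. The difference between SHPCs with BM-MCs and MHs was 0.44 (adjusted p = 0.68) and ran from -0.25 without MH replicate 2 to 1.13 without MH replicate 1.

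Btg2, an antiproliferative protein that binds the CCR4-NOT deadenylase, was at 0.35 and 0.21 in the MHs, at 0.15, 0.13 and -0.29 in control SHPCs and at 0.75, 1.25 and 0.30 in SHPCs with BM-MCs. Every BM-MC sample and every MH sample lay above the controls, the nearest of them by a small step. The difference between SHPCs with and without BM-MCs was 0.77 (standard error 0.26, unadjusted p = 0.025, adjusted p = 0.25 from limma), and that between MHs and control SHPCs was 0.29 (standard error 0.28, adjusted p = 0.60), or 0.14 without control SHPC replicate 3. SHPCs with BM-MCs and MHs overlapped, with a difference of 0.49 (adjusted p = 0.47), or 0.24 without BM-MC replicate 2.

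Sesn1, a sestrin that restrains mTORC1, was at -4.22 and -4.23 in the MHs, at -3.99, -4.17 and -4.67 in control SHPCs and at -4.73, -4.79 and -4.71 in SHPCs with BM-MCs. The BM-MC samples were the lowest 3 of the 8, and control replicate 3, which shares their set of arrays, was next. The difference from control SHPCs was -0.46 (standard error 0.19, unadjusted p = 0.046, adjusted p = 0.29 from limma), and it was -0.07 within set 2. MHs differed from control SHPCs by 0.06 (adjusted p = 0.90), and SHPCs with BM-MCs from MHs by -0.52 (adjusted p = 0.34). Both signs turned with the set of arrays as a block, to -0.14 and 0.068.

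Counted over the main probes, all 9 targets had a difference above 0 between MHs and control SHPCs, and in 8, all but Sesn1, both MHs lay above every control. Of all tested probes 22.7% were higher and 18.7% lower without overlap in this comparison. At an unadjusted p under 0.05 in limma, 7 targets were higher and 0 lower, beside 11% and 8.21% of all probes. At an adjusted p under 0.05 there were 0 targets, beside 0.216% of all probes higher and 0.917% lower. The median difference of the 9 targets was 1.07, beside 0.03 over all tested probes. These values stand in the plot of differences for the 3 comparisons, in which the medians are drawn as vertical lines. The targets were chosen with earlier results of these data known. In all 3 comparisons the counts and medians beside those of all probes are therefore a description and not a test of the set.

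Between SHPCs with and without BM-MCs, 8 targets had a difference above 0 and Sesn1 below 0. Without overlap, 3 targets were higher (Tp53inp1, Gdf15 and Btg2) and 1 lower (Sesn1), beside 13% of all probes higher and 11.6% lower. At an unadjusted p under 0.05 in limma, 4 were higher and 1 lower, beside 10.7% and 5.92%. At an adjusted p under 0.05 there were 0 targets, beside 0.0216% of all probes higher and 0% lower. The median was 0.34, beside 0.02 over all tested probes. Without BM-MC replicate 3, a count added after the values had been seen, 7 targets were higher without overlap, beside 22% of all probes, and 1 was lower, beside 20.3%, and the median of the targets was 0.74. The median was 0.12 without BM-MC replicate 1, 0.71 with the set of arrays as a block, 0.52 with another background correction and quantile normalization on 7 arrays, and 0.15 with median scaling, under which the median of all probes was -0.17.

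Between SHPCs with BM-MCs and MHs, 3 targets had a difference above 0 and 6 below 0. Without overlap, 1 target was higher (Tp53inp1) and 6 were lower (Cdkn1a, Mdm2, Ccng1, Phlda3, Zmat3 and Sesn1), beside 16% of all probes higher and 16.3% lower. Without BM-MC replicate 3 these counts were 2 and 6, beside 20.1% and 21.6% of all probes. At an unadjusted p under 0.05 in limma, 1 was higher and 3 lower, beside 7.33% and 5.95%. At an adjusted p under 0.05 there were 0 targets, beside 0.32% of all probes higher and 0.0173% lower. The median of the targets was -0.52, beside 0.003 over all tested probes, and it was -0.17 with the set of arrays as a block. The 3 comparisons share samples, so their values are not independent of each other.

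**Figure D3:**
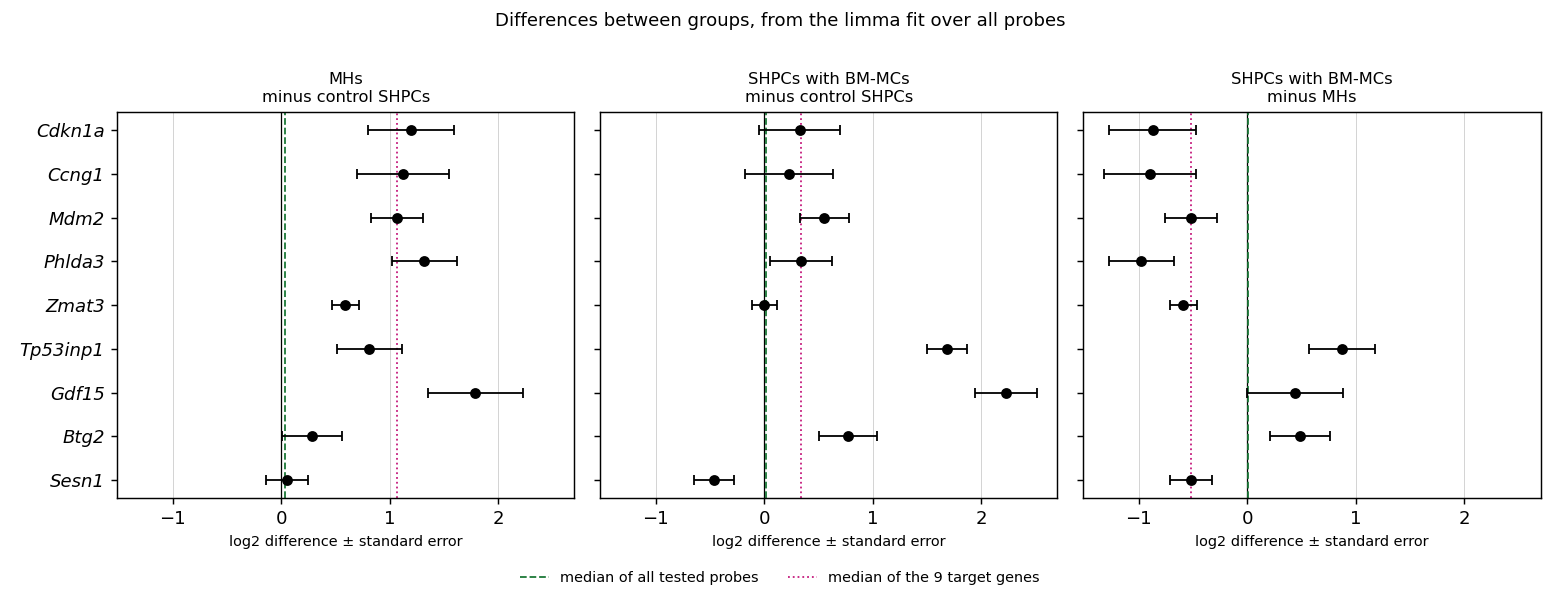
Log2 difference between groups with its standard error (horizontal axes) for the 9 targets in each of the 3 comparisons, with the median of the 9 targets (dotted) and of all tested probes (dashed). The median of the targets is 1.07 in MHs minus control SHPCs, 0.34 in SHPCs with BM-MCs minus control SHPCs and -0.52 in SHPCs with BM-MCs minus MHs, whereas that of all probes stays near 0.

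Sample by sample, the BM-MC samples differed from each other. Relative to the mean of the control SHPCs, the median of the 9 targets was 1.17 and 0.996 in the MHs, 0.06, 0.13 and -0.23 in the controls, and 0.76, 0.63 and -0.13 in BM-MC replicates 1, 2 and 3. BM-MC replicate 3 thus lay within the range of the controls by this median. Gene by gene it lay within that range for Mdm2, at 0.12, and below every control for Cdkn1a (-0.50), Ccng1 (-0.65), Zmat3 (-0.13) and, by a margin too small to show at 2 decimals, Phlda3 (-0.22). The same sample was at 1.78 for Tp53inp1 and 2.18 for Gdf15, within the range of the other BM-MC samples, and it also lay above every control for Btg2 (0.31) and below every control for Sesn1 (-0.43). The median of all tested probes lay between -0.02 and 0.04 in the 8 samples.

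**Figure D4:**
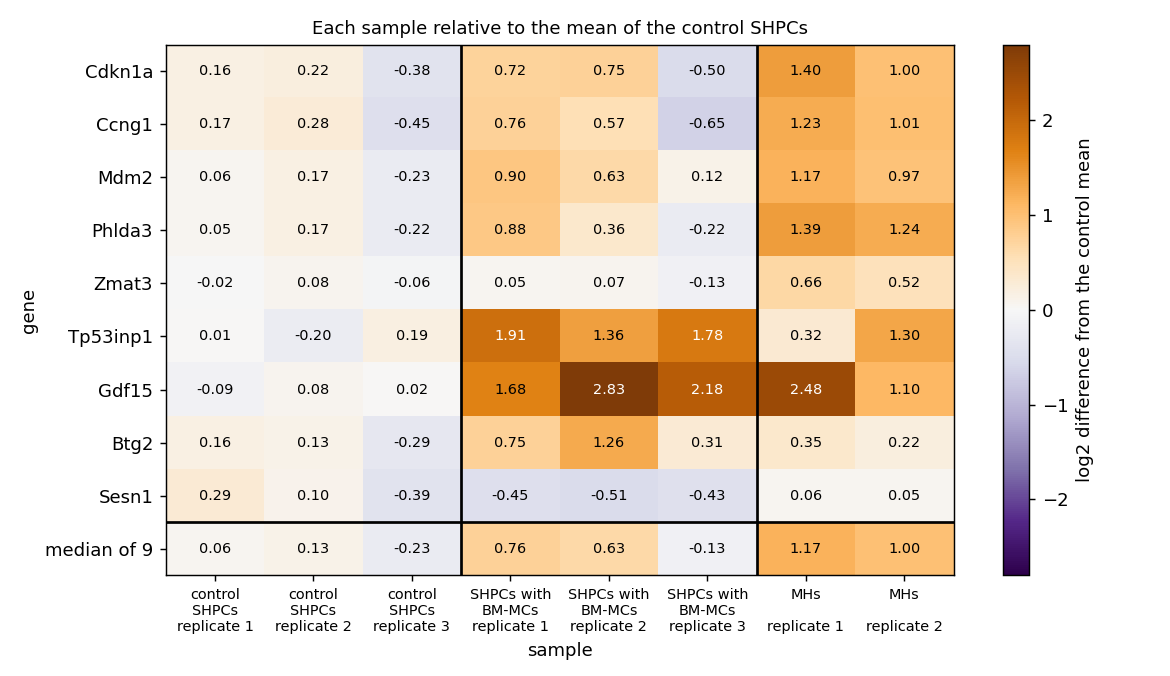
Log2 difference of each sample (columns) from the mean of the control SHPCs for each of the 9 targets (rows), with the median of the 9 in the bottom row. BM-MC replicate 3 lies below the other BM-MC samples in the upper 5 rows (from -0.65 to 0.12), and above every control for Tp53inp1 (1.78), Gdf15 (2.18) and Btg2 (0.31).

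Position on the slide largely coincided with the groups, so the differences were also taken within a set of arrays. Within set 1, both MHs lay above control SHPC replicates 1 and 2 for the targets named above as higher, and the differences were 1.01 for Cdkn1a, 0.95 for Mdm2, 0.90 for Ccng1, 1.21 for Phlda3, 0.56 for Zmat3, 0.91 for Tp53inp1, 1.80 for Gdf15 and 0.14 for Btg2. Within set 2, where control SHPC replicate 3 is the only control, the 3 BM-MC samples lay above it for Mdm2 (0.78), Tp53inp1 (1.49), Gdf15 (2.21) and Btg2 (1.06). For Cdkn1a (0.71), Ccng1 (0.67), Phlda3 (0.56) and Zmat3 (0.06) the mean was higher and BM-MC replicate 3 reached or passed below the control. With the set as a block in limma the adjusted p was 0.19 for Tp53inp1 and 0.23 for Gdf15 between SHPCs with and without BM-MCs, and 0.16 for Mdm2, 0.16 for Phlda3 and 0.14 for Zmat3 between MHs and control SHPCs. MHs and SHPCs with BM-MCs never shared a set, so that comparison rests on the controls that bridge the sets, and its block estimates were -0.30 for Cdkn1a, -0.17 for Mdm2, -0.22 for Ccng1, -0.65 for Phlda3, -0.50 for Zmat3, 0.58 for Tp53inp1, 0.41 for Gdf15, 0.92 for Btg2 and 0.068 for Sesn1.

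Of 15 other genes that regulate p53 or act beside it, 13 were tested and 0 passed the adjusted threshold in any comparison, beside at most 0.917% of all probes in either direction of a comparison. Mdm4, a relative of Mdm2 that holds p53 inactive, was at 2.06 and 2.18 in the MHs, at 1.43, 1.56 and 1.42 in control SHPCs and at 2.24, 2.33 and 1.97 in SHPCs with BM-MCs. MHs and SHPCs with BM-MCs thus both lay above the controls, by 0.65 (adjusted p = 0.093 from limma) and 0.71 (adjusted p = 0.13). Tp53bp1, which binds p53 and marks sites of DNA damage, was not well above background on the controls with complete marks. Against the lowest signals well above background it was at least 1.06-fold higher in MHs (adjusted p = 0.26 on its measured signals). In SHPCs with BM-MCs 1 of 3 arrays measured it, and no fold is given. Between SHPCs with BM-MCs and MHs the largest differences without overlap were 0.48 for Ppm1d, a phosphatase that switches p53 signalling off (adjusted p = 0.33), and 0.37 for the p53 relative Tp63 (adjusted p = 0.42). The list had a median of 0.08, 0.14 and 0.06 in the 3 comparisons, in the order used above.

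Other known targets were taken as 4 lists by function, and 0 of their genes passed the adjusted threshold in any comparison, beside the same share of at most 0.917% of all probes. Of the arrest targets, 5 of 6 were tested. The stress kinases Plk2 and Plk3 were the largest, with 0.99 (adjusted p = 0.16 from limma) and 0.65 (adjusted p = 0.16) between MHs and control SHPCs. With BM-MCs Plk2 differed from control SHPCs by 0.67 with overlapping groups (adjusted p = 0.29) and Plk3 by 0.42 without overlap (adjusted p = 0.23). They differed from MHs by -0.32 and -0.24 with overlapping groups. The medians of the list were 0.08, 0.16 and 0.08.

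Of the apoptosis targets, 13 of 15 were tested. Aen, an exonuclease, was higher in MHs than in control SHPCs by 0.75 without overlap (adjusted p = 0.14 from limma), was 0.04 apart between the SHPC groups, and differed by -0.71 between SHPCs with BM-MCs and MHs (adjusted p = 0.28). Siva1 was at -0.69 in the comparison of MHs with control SHPCs (adjusted p = 0.13). Triap1, a small inhibitor of apoptosis, was at -0.43 between SHPCs with and without BM-MCs (adjusted p = 0.24) and at -0.33 against MHs (adjusted p = 0.39), and Perp was at -0.06 (adjusted p = 0.76) in the former. The medians of the list were 0.12, 0.04 and -0.19.

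Of the repair and metabolism targets, 11 of 13 were tested. Pcna, the replication clamp, was lower in MHs than in control SHPCs by a difference of -1.38 (adjusted p = 0.065 from limma), and was at -0.79 between SHPCs with and without BM-MCs (adjusted p = 0.22), without overlap in either. The glutaminase Gls2 was at -0.59 between MHs and control SHPCs (adjusted p = 0.21), and Dram1, a lysosomal protein, at 0.39 between the SHPC groups, which overlapped (adjusted p = 0.39). Between SHPCs with BM-MCs and MHs, Pcna was at 0.59 (adjusted p = 0.39) and Pank1, which makes coenzyme A, at -0.52 (adjusted p = 0.36). The medians of the list were -0.06, 0.05 and 0.16.

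Of the secreted and other targets, 6 of 8 were tested. Spata18, a mitochondrial quality-control gene, was not well above background on the controls with complete marks. It was at least 2.71-fold higher in MHs (adjusted p = 0.056 on its measured signals). In SHPCs with BM-MCs 1 of 3 arrays measured it, and no fold is given. Rps27l, a ribosomal protein variant, was at 0.59 between MHs and control SHPCs (adjusted p = 0.23) and at -0.50 between SHPCs with BM-MCs and MHs (adjusted p = 0.40). Fbxw7, a ubiquitin ligase subunit, was at 0.43 between the SHPC groups (adjusted p = 0.20) without overlap. The medians of the list were 0.25, 0.07 and -0.13.

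The genes that did pass were cell cycle genes known to be lowered through p21 and the DREAM complex. Of 19 tested out of 20, 13 passed the adjusted threshold in limma with the MHs below the control SHPCs and 0 with the MHs above, beside 0.917% and 0.216% of all probes, and the list had a median of -2.92. Mki67 was at -2.83 and -2.61 in the MHs, at 0.14, 0.48 and -0.01 in control SHPCs and at -1.02, -0.60 and -0.25 in SHPCs with BM-MCs, and its difference between MHs and control SHPCs was -2.92 (adjusted p = 0.0033). The difference was -3.28 for Ccnb1 (adjusted p = 0.0025), -3.11 for Cdk1 (adjusted p = 0.0043) and -3.51 for Ccna2 (adjusted p = 0.0025). Bub1b was not well above background in MHs, where it was at least 2.51-fold lower. Its adjusted p of 0.0025 from limma rests on MH signals that are only bounds, and without this gene 12 of 18 passed, with the MHs lower. Ccnb2, Cdc20, Plk1, Top2a, Rrm2, Kif20a, Tpx2 and Ube2c were the others, with differences from -3.38 to -1.97.

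In SHPCs with BM-MCs the same list had a median of -0.84 relative to control SHPCs, with 0 genes past the adjusted threshold. Without overlap 13 were lower, beside 11.6% of all probes, and 12 were lower at an unadjusted p under 0.05, beside 5.92%. Ube2c, at -1.09 (adjusted p = 0.13 from limma), and Rrm2, at -1.04 (adjusted p = 0.19), were the largest without overlap. Against MHs, 10 of the 19 passed the adjusted threshold upward and 0 downward, beside 0.32% and 0.0173% of all probes, and the median was 1.83. Ccnb1 rose by 2.25 (adjusted p = 0.024), Ccna2 by 2.53 (adjusted p = 0.024), Cdk1 by 2.09 (adjusted p = 0.040) and Mki67 by 2.09 (adjusted p = 0.026). Ccnb2, Plk1, Top2a, Kif20a and Ube2c were the others besides Bub1b, with differences from 1.76 to 2.59. For Bub1b no fold is given, since it was well above background on 0 of 2 MH arrays and 1 of 3 BM-MC arrays, and without this gene 9 of 18 passed. Mybl2 and Aurkb, also on the list, were named after their values were seen. Against the direction of the list, both MHs lay above every control for each, by 1.30 and 0.16 (adjusted p = 0.24 and 0.52 from limma). Mybl2 was at 0.87 and Aurkb at -0.01 between SHPCs with and without BM-MCs, with overlapping groups (adjusted p = 0.40 and 0.97).

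**Figure D5:**
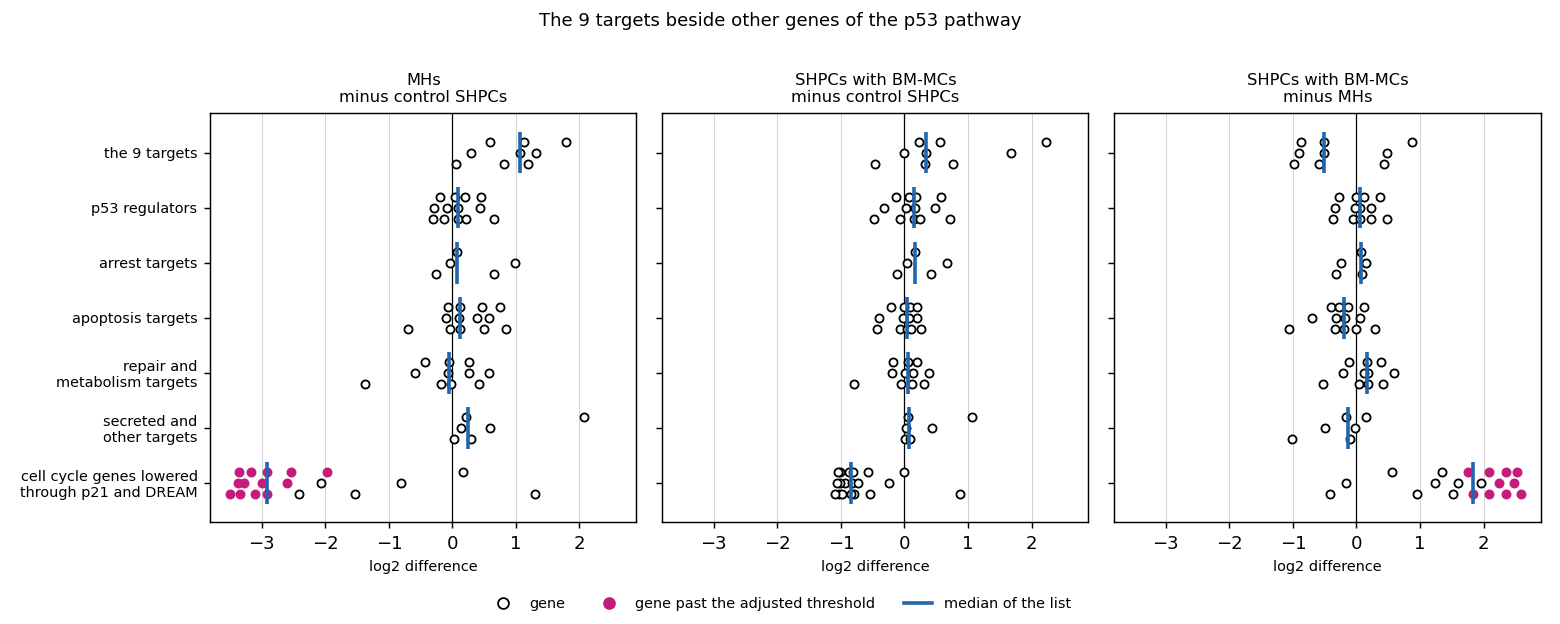
Log2 differences of single genes (circles, filled where the adjusted p is under 0.05) in the 9 targets and 6 lists of p53 pathway genes for each of the 3 comparisons, with a bar at the median of each list. In MHs minus control SHPCs the 9 targets have a median of 1.07 and the cell cycle genes of -2.92, and the other 5 lists have medians from -0.06 to 0.25.

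The gene patterns nearest to that of Cdkn1a were sought over 12708 named genes by Pearson's correlation with its main probe over the 8 samples, as a description. The samples share 3 groups, so a gene that differs between the groups in the same way scores high. So does a gene that follows Cdkn1a from sample to sample within the groups. For Cdkn1a and Ccng1, r was 0.983 between the deviations from the group means. LOC102549099 came first (r = 0.998), followed by the apolipoprotein gene Apoa2 (r = 0.991), the zinc finger gene Zfp958 (r = 0.991), Ccng1 (r = 0.989) and Cyria (r = 0.989). Ccng1, a member of the 9 targets, was thus the fourth nearest of all named genes. Between MHs and control SHPCs these genes differed by 2.44, 1.68, 0.95, 1.12 and 1.13 in the same order, and 0 of the 5 passed the adjusted threshold in any comparison (adjusted p from 0.145 to 0.798 in limma).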

How the data were processed

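RNA of microdissected rat liver cells had been labelled with Cy3 and hybridised to 1-colour Agilent arrays. The authors deposited intensity values per spot, background-subtracted by Agilent Feature Extraction 10.7 per the submitters' processing notes. From these, log2 of the processed signal minus the array's 75th percentile was taken, without outlier spots and averaged per probe. A probe was tested if well above background on at least 3 of 7 arrays with complete marks. Groups were compared by limma 3.58.1 (R 4.3.3), and p-values were adjusted by Benjamini-Hochberg over 23111 probes and a threshold of 0.05. The 6 SHPC samples entered the comparison of SHPCs with and without BM-MCs, and all 8 samples the comparisons with MHs. The script was tested on simulated data. The study's methods name Student's test, which is an alternative here. The main probe of a gene was its brightest. Of each pathway list, the genes past the threshold were named, otherwise those with the largest differences among genes whose groups did not overlap, or among all its genes where too few were without overlap. The 9 targets and all lists were chosen with earlier results of these data known, and the promoters printed were chosen after the search. Some genes of the lists are not reported here.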

Additional observations from a re-analysis of the deposited data

How the results depend on the processing

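No target passed the adjusted threshold between MHs and control SHPCs, but 1 was higher in MHs with only those groups in the fit (0.329% of all probes), 3 were with an intensity trend in limma (0.883%), and 6 had an unadjusted p under 0.05 by the methods' t-test (9.39%), of which 0 passed after adjustment. Leaving out 1 sample gave 0 to 2 targets, the 2 (Mdm2 and Phlda3, higher in MHs, beside 0.926% of all probes) without BM-MC replicate 3. Between SHPCs with and without BM-MCs, 2 targets were higher with BM-MCs without scaling (0.891% of all probes), 2 with an intensity trend (0.125%), and 2 by the methods' t-test unadjusted (8.12%), of which 0 passed after adjustment. Leaving out 1 sample gave 0 to 2, the 2 being Tp53inp1 (adjusted p = 0.028) and Gdf15 (adjusted p = 0.045), both higher, beside 2.12% of all probes, without control SHPC replicate 3. Between SHPCs with BM-MCs and MHs, 2 were lower by the methods' t-test unadjusted (4.87% of all probes), 0 after adjustment, and 0 with any sample left out. With the slide set as a block, the median of the targets was 0.71 in the comparison of the SHPC groups and -0.17 in that of BM-MC samples to MHs, and with 1 sample left out it ran from 0.91 to 1.17, from 0.12 to 0.74 and from -0.62 to -0.46 in the 3 comparisons.

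Signs turned for Sesn1, Ccng1, Zmat3 and Gdf15, each in some comparisons. Between MHs and control SHPCs, Sesn1 was at -0.035 with the replicate block, -0.14 with that of the slide set, and -0.14 to 0.20 with 1 sample left out. Between the SHPC groups, Ccng1 ran from -0.041 to 0.66 and Zmat3 from -0.036 to 0.064 with 1 sample left out, and Zmat3 was at -0.19 with median scaling. Median scaling moved the median of all probes to -0.17 there and to -0.19 in the comparison of BM-MC samples to MHs. In the latter comparison Gdf15 ran from -0.25 to 1.13 with 1 sample left out, and Sesn1 was at 0.068 with the slide set. The causes were not tested. Deviations of same-numbered SHPC samples went together weakly (r = 0.133, 0.0779 and 0.171), beside r from -0.154 to 0.0821 for differently numbered ones. Between MHs and SHPC samples of the same number r ran from -0.129 to 0.0506. Whether the numbers pair samples is thus not settled. With the replicate block 0 targets passed and their medians were 0.88, 0.34 and -0.43. The number of arrays limits the precision.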
